A study of Mus with 30 samples.

Results

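A set of 760 Ensembl transcripts reached a mean of 0.5 FPKM in the hearts of saline-infused mice and stayed under it in the Ang II group. In the 4 groups given a drug with Ang II their values are not listed, and they were read as under it there too. They were chosen by their absence from tables. An identifier was a member when it was listed for the Control and Ang II groups and for none of the 4 drug groups. The members were 3.17% of the 23938 Ensembl transcripts in the Control and Ang II tables and 2.78% of the 27294 in all tables together. FPKM, the unit the values were read as, is scaled for transcript length and library size.

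The study sequenced RNA of cardiac tissue, with ribosomal RNA depleted, from 30 C57BL/6 mice that fell into 6 groups of 5. According to the methods of the paper, the left part of the heart was taken for sequencing. They give 6 sequenced mice in each of the Control, Ang II and gastrodin groups, where 5 per group are present here. The Control group was given saline by infusion and as treatment for 28 days. The Ang II group was infused with angiotensin II at 500 ng/kg/min for 28 days and treated with saline. The same infusion was combined with ethoxysanguinarine (AngII+ETH), baicalin (AngII+BAI) or gastrodin (AngII+GAS) at 5 mg/kg/day, or with valsartan (AngII+VAL) at 10.4 mg/kg/day. The methods describe the mice of the Control, Ang II and gastrodin groups as male and young adult, and mention no genetic alteration. All 4 drug groups carried the Ang II infusion, so no group shows a drug alone. Each library came from a separate mouse, and no pairing across groups is given.

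Angiotensin II is a peptide hormone that constricts vessels and raises blood pressure through the AT1 receptor, and its prolonged infusion enlarges and scars the heart. Valsartan blocks that receptor. Ethoxysanguinarine is an alkaloid, baicalin a flavonoid glycoside and gastrodin a phenolic glucoside, all from plants used in traditional Chinese medicine. One gene can give rise to several transcripts through other start sites, splice sites and ends, and an Ensembl transcript identifier names one of them. The level of a single transcript therefore depends both on how active its gene is and on how reads are shared among the transcripts of that gene.

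The tables themselves show what absence from them means. Among transcripts listed for Control and Ang II, the higher of the 2 group means was never under 0.5. Each drug table listed every transcript that reached this mean in the Ang II group, since 0 of the 2201 to 2403 transcripts that each of them lacked did so. Transcripts that were listed although they lay under 0.5 in the drug group itself, between 2772 and 2984 of them, were all at 0.5 or more in the Ang II group. Absence from a drug table was therefore read as a mean under 0.5 in both that drug group and the Ang II group, of which only the second could be checked on values. All 760 members consequently owed their place to the Control mice alone. The values that chose them are the group means of all 6 groups, so that the Control group lies above the other 5 by construction, and levels in Control and Ang II are given as a description. Levels of the members in the drug groups are not known more closely than that. Absence means low and not zero.

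The members were matched to no gene. Of the 760 identifiers, 0 were found in the RefSeq gene table used here, which carries 0 Ensembl identifiers. Heart markers could not be looked up for the same reason, so the label of the tissue was not checked and no sequence or gene function is given. In bulk tissue, fewer cells of a type and less RNA per cell cannot be told apart.

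Most members lay close to the threshold. The mean of the 5 Control mice ran from 0.5 to 8.89 FPKM, with a median of 0.580 and quartiles of 0.533 and 0.670. The mean of the 5 Ang II mice ran from 0 to 0.498 FPKM, with a median of 0.276 and quartiles of 0.170 and 0.365. Only 50 members had a Control mean of 1 or more, 14 of 2 or more and 3 of 5 or more. In the Control group 556 members were above 0 in all 5 mice, 104 in 4, 62 in 3, 32 in 2 and 6 in a single mouse. In the Ang II group 463 were above 0 in all 5 mice and 21 were at 0 in all 5. A total of 438 members were above 0 in all 10 mice, so most were also detected in the Ang II group. Their lower mean there was set by the rule.

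**Figure D1:**
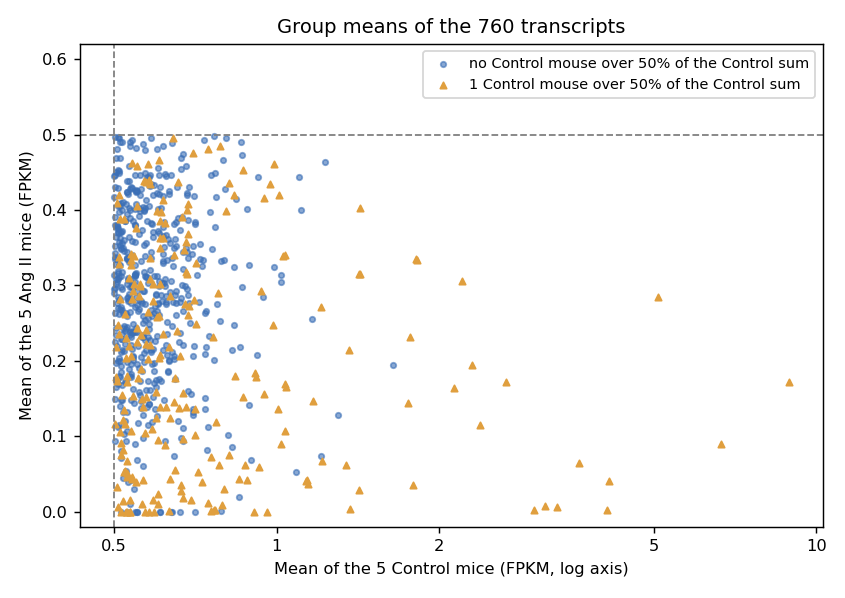
Mean of the 5 Ang II mice (vertical axis, FPKM, linear) against the mean of the 5 Control mice (horizontal axis, FPKM, log scale) for each of the 760 transcripts. Dashed lines mark the mean of 0.5 that fixed the selection, and triangles mark the 229 transcripts in which 1 Control mouse held over 50% of the Control sum. Most points crowd just to the right of the threshold, and all 14 with a Control mean of 2 or more are triangles.

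The level of the members differed between the Control mice. Their median was 0.472 FPKM in mouse 5114, 0.639 in mouse 5155, 0.369 in mouse 5116, 0.433 in mouse 5193 and 0.651 in mouse 5153. In the Ang II group the medians lay between 0.182 and 0.232 FPKM. Mice 5155 and 5153 thus stood above the other Control mice, and the 5 Ang II mice lay close together. Summed over the members, the level was 729 FPKM in mouse 5155 and 662 in mouse 5153, against 375 to 487 in the other Control mice and 178 to 214 in the Ang II mice. At 0.5 FPKM or more were 494 members in mouse 5155 and 480 in mouse 5153, against 271 to 356 in the other Control mice and 86 to 140 in the Ang II mice. Single mice of the Ang II group still crossed the threshold, since 431 members were at 0.5 or more in at least 1 of them and 76 at 1 or more. Only 11 members were at 0.5 or more in all 5 Control mice. None of these 11 was under 0.5 in all 5 Ang II mice.

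**Figure D2:**
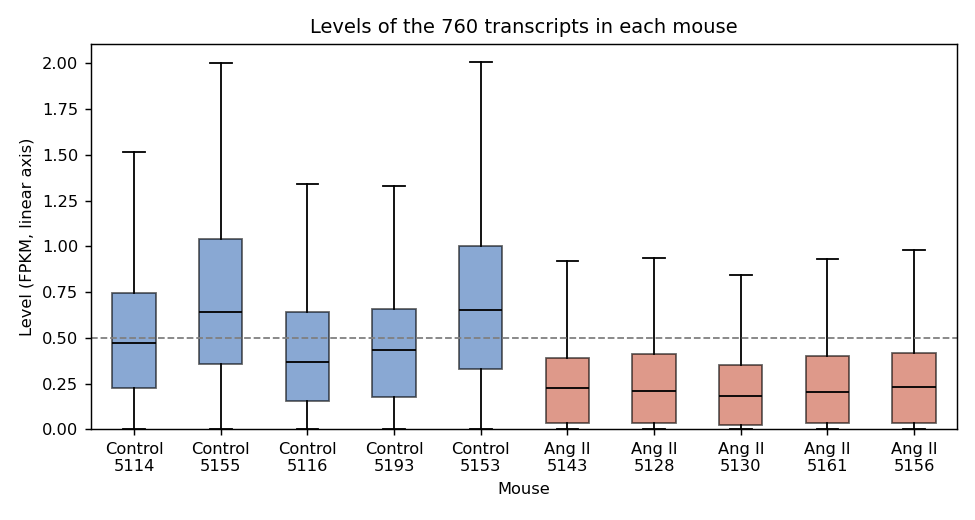
Level of the 760 transcripts (vertical axis, FPKM, linear) in each of the 5 Control mice and 5 Ang II mice. Boxes span the quartiles with the median as a line, whiskers reach the last value within 1.5 box heights, values beyond are not drawn, and the dashed line marks 0.5. The medians of mice 5155 and 5153 lie at 0.639 and 0.651, and those of the Ang II mice at 0.182 to 0.232.

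Mice 5155 and 5153 also held the highest Control value more often than the other Control mice over all Ensembl transcripts. Among the members, 33.0% were highest in mouse 5155 and 31.4% in mouse 5153. Of all Ensembl transcripts in the table, 29.9% and 32.5% were. The upper quartile over the transcripts at the threshold in all 6 groups was 7.12 FPKM in mouse 5155 and 7.15 in mouse 5153, against 5.79 to 6.28 in the other Control mice and 6.05 to 7.02 in the Ang II mice. Their values over all transcripts summed to 596874 and 585451, the lowest sums of the Control group, in which the others reached 612451 to 654188. After the 10 mice had been scaled to one upper quartile, a step chosen after the data were seen, 695 of the 760 members still had a Control mean of 0.5 or more and an Ang II mean under it.

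A single Control mouse carried many members. In 229 of them (30.1%) 1 mouse held over 50% of the Control sum, which was mouse 5155 for 82, mouse 5153 for 77, mouse 5114 for 34, mouse 5116 for 20 and mouse 5193 for 16. In these 229 the mean of the other 4 Control mice, lower by construction, had a median of 0.281 FPKM. In 41 members 1 mouse held over 90%. A Control mouse lay far above the other 4 (gap over range above Dixon's critical value of 0.710) in 20.3% of the members and in 10.4% of the 23848 Ensembl transcripts with any spread in Control. The rule favours such transcripts, since a high mouse raises the Control mean. Without mouse 5155, 515 of the members kept a Control mean of 0.5, and without mouse 5153 this number was 526. It was 626 without mouse 5114, 650 without mouse 5193 and 675 without mouse 5116. Only 186 members (24.5%) kept the mean whichever Control mouse was left out.

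The highest members were high in a single heart. ENSMUST00000079716 was at 0.210 FPKM in mouse 5114, 43.9 in mouse 5155, 0.119 in mouse 5116, 0.173 in mouse 5193 and 0.0656 in mouse 5153. In the Ang II mice it lay between 0.0747 and 0.290 FPKM. Its Control mean of 8.89 ± 19.6 FPKM (SD, n = 5) therefore rested on mouse 5155, and the other 4 Control mice had a mean of 0.142 and overlapped the Ang II mice. ENSMUST00000230714 was at 32.5 FPKM in mouse 5155, at 0.106 to 0.371 in the other Control mice and at 0 to 0.159 in the Ang II mice. ENSMUST00000084366 was at 24.5 FPKM in mouse 5155, at 0.187 to 0.292 in the other Control mice and at 0.218 to 0.330 in the Ang II mice. ENSMUST00000111349 was at 16.6 FPKM in the same mouse and at 1.36 in mouse 5153, with 0.00841 to 0.156 in the other Control mice and 0 to 0.109 in the Ang II mice. These 4 transcripts were all highest in mouse 5155, and in each of them the other Control mice overlapped the Ang II mice.

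Other mice carried other members. ENSMUST00000151221 was at 19.7 FPKM in mouse 5153, at 0.892 in mouse 5114 and at 0 in the other Control mice, while in the Ang II group it was at 0.206 in mouse 5128 and at 0 in the rest. ENSMUST00000069256 was at 20.4 FPKM in mouse 5114, at 0.00162 to 0.0655 in the other Control mice and at 0 to 0.00326 in the Ang II mice. Among members chosen after their values were seen, ENSMUST00000090260 was the highest of mouse 5116, with 10.5 FPKM there, 0 to 0.0591 in the other Control mice and 0.0528 to 0.326 in the Ang II mice. ENSMUST00000109832 was the highest of mouse 5193, with 7.59 FPKM there, 0.289 to 0.529 in the other Control mice and 0.250 to 0.515 in the Ang II mice. The highest member of each of the 5 Control mice lay at 7.59 FPKM or more there and at 0.892 or less in the other Control mice. Each was picked as the maximum of its mouse. Of the 14 members with a Control mean of 2 or more, 5 were highest in mouse 5153, 4 in mouse 5155, 3 in mouse 5114, 2 in mouse 5116 and 0 in mouse 5193. In all 14 of them 1 mouse held over 50% of the sum, and no member had a Control median of 2 or more.

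**Figure D3:**
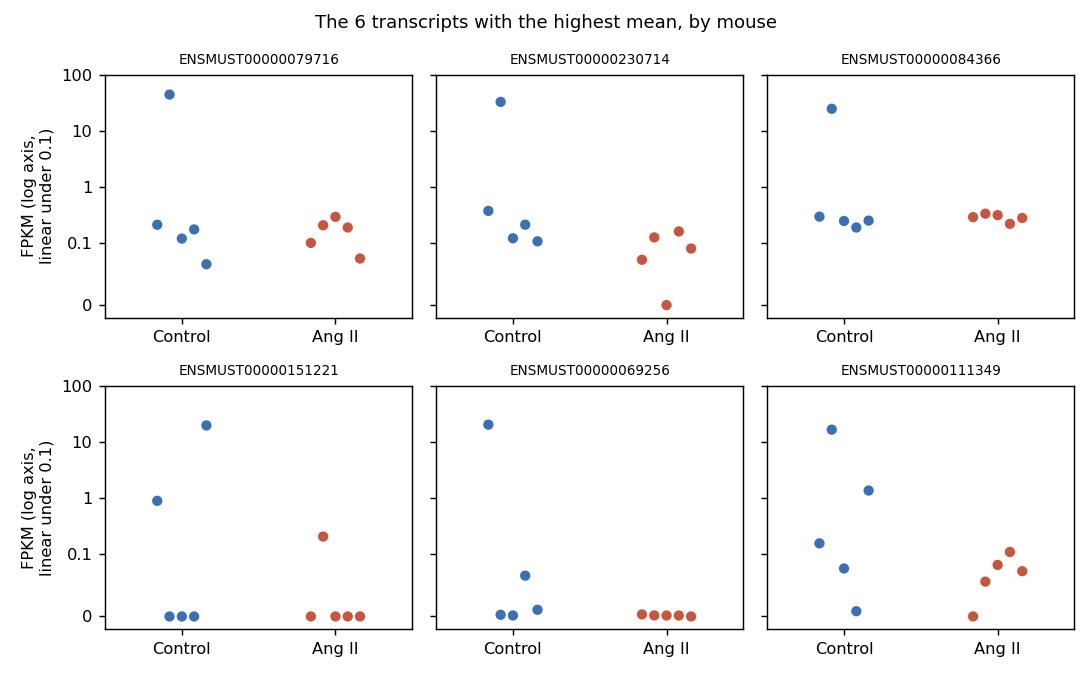
Level of the 6 members with the highest mean over the 10 mice, in FPKM on a log axis that is linear under 0.1. Each point is 1 of 5 Control or 5 Ang II mice. In every panel 1 Control mouse lies at 16.6 FPKM or more, and the other Control mice lie at 1.36 or less.

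Other members were above 0 in every Control mouse and at or near 0 in the Ang II mice. ENSMUST00000181071 was at 0.991, 0.615, 0.870, 0.499 and 0.976 FPKM in Control mice 5114, 5155, 5116, 5193 and 5153. In the Ang II group it was at 0.00684 in mouse 5156 and listed at 0 in the other 4. ENSMUST00000167971 was at 0.556, 0.739, 0.578, 0.728 and 0.441 FPKM in the Control mice in the same order, and at 0 in all 5 Ang II mice. ENSMUST00000181936 was at 0.914, 0.953, 0.245, 0.965 and 1.17 FPKM in the Control mice, with 0 to 0.0619 in the Ang II mice. These 3 transcripts were picked for the smallest p among the members in the fit of Ang II against Control, the contrast the rule used. Their groups did not overlap, which this choice favours, so nothing is read from it. A value of 0 is reported here only as listed, because 75 of the 2877 Ensembl transcripts with a mean of 10 or more over the 10 mice were also listed at 0 in at least 1 mouse.

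Above 0 in all 5 Control mice and at 0 in all 5 Ang II mice were 3 members. The share of all transcripts with this pattern was not computed, so the count is a description only. One of the 3 was ENSMUST00000167971. The other two were picked after their values were seen. ENSMUST00000111818 was at 0.845, 0.714, 1.03, 0.592 and 0.0104 FPKM in Control mice 5114, 5155, 5116, 5193 and 5153. ENSMUST00000029727 was at 2.36 FPKM in mouse 5153 and at 0.0266 to 0.111 in the others, so it was carried by one heart. The highest Control median of all members, 1.64 FPKM, belonged to ENSMUST00000049680, likewise chosen after its values were seen. It was at 1.64, 0, 1.54, 1.87 and 3.17 FPKM in the Control mice in the order given above, and in the Ang II group at 0.971 in mouse 5128 and at 0 in the rest. Its groups overlapped through Control mouse 5155 and Ang II mouse 5128. In all, 14 members had a Control median of 1 or more, with Ang II means of 0.0531 to 0.492, and 6 of the 14 were above 0 in every Control mouse.

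In 37 members (4.87%) every Control mouse lay above every Ang II mouse, where this held for 1.19% of all 31852 transcripts in the table. The reverse order, every Ang II mouse above every Control mouse, held for 0.832% of all transcripts. Nothing is read from the first share, since the rule set the Control mean above the Ang II mean. The 37 had a median Control mean of 0.587 FPKM and a median Ang II mean of 0.148, and Control means from 0.504 to 1.76. In 6 of the 37 a single mouse held over 50% of the Control sum, and 17 kept a Control mean of 0.5 whichever Control mouse was left out. Among the 37, the highest Control median was that of ENSMUST00000229416, at 1.01 FPKM. It was at 0.225, 1.25, 0.203, 1.01 and 1.03 in the Control mice in the order above and at 0.00735 to 0.175 in the Ang II mice.

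At the other end were members whose levels hardly differed. The 4 with the lowest coefficient of variation over the 10 mice had values from 0.185 to 0.215. ENSMUST00000122383 was at 0.509 ± 0.0533 FPKM in Control and 0.430 ± 0.101 in Ang II (SD, n = 5 in each group), and ENSMUST00000181102 at 0.569 ± 0.0975 and 0.479 ± 0.0815 (SD, n = 5). ENSMUST00000038831 was at 0.512 ± 0.147 and 0.495 ± 0.0607 FPKM (SD, n = 5), and ENSMUST00000103191 at 0.539 ± 0.0991 and 0.492 ± 0.129 (SD, n = 5). In each of the 4 the groups overlapped and the means differed by less than the larger SD. ENSMUST00000176936 had a higher Ang II than Control level on the log2 scale, the only one of the 760 with this order in the fit as given, although its Control mean was 0.506 ± 0.398 FPKM and its Ang II mean 0.481 ± 0.102 (SD, n = 5). Its highest Control value was 1.16 FPKM, in mouse 5155. The number of members with this order was 15 at a pseudocount of 0.1 and 18 after quantile normalization. With 1 mouse left out it was between 9 and 42, with 42 without Control mouse 5155, 35 without mouse 5153 and 23 without mouse 5114.

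**Figure D4:**
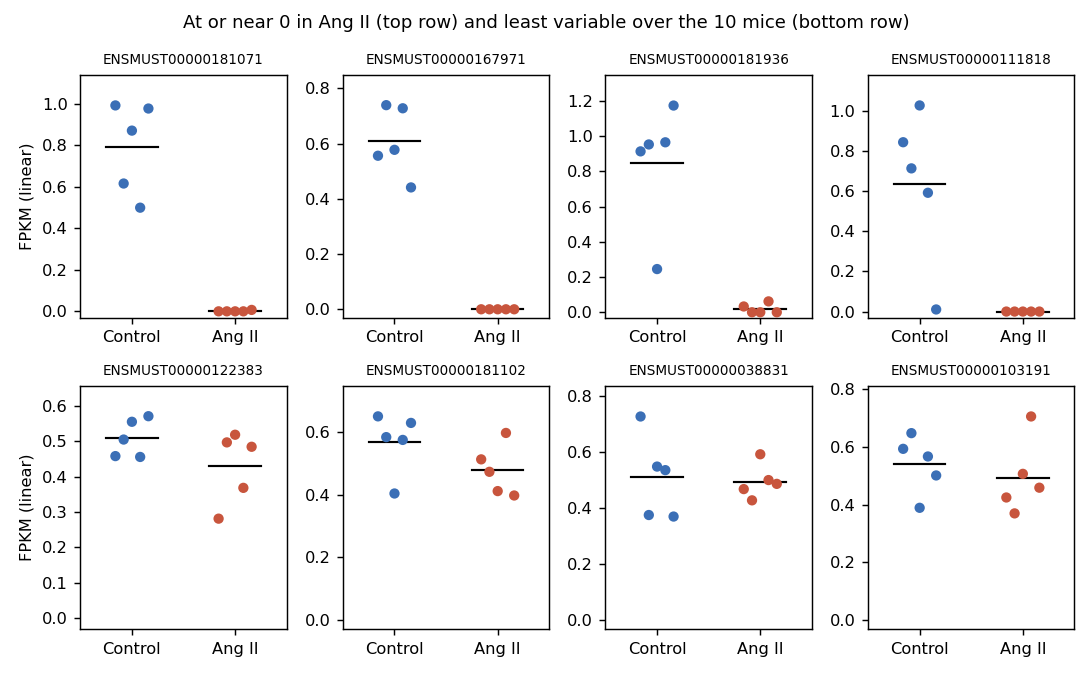
Level in FPKM (linear axes, a separate scale for each panel) of 8 members in 5 Control and 5 Ang II mice, with a line at each group mean. In the top row the Ang II mice lie at or near 0, and the Control mice of ENSMUST00000111818 reach down to 0.0104. In the bottom row, the 4 members with the lowest coefficient of variation, the groups overlap.

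The edge of the set was narrow. Just inside it, ENSMUST00000113397 had a Control mean of 0.500002 FPKM, made of 0.408, 0, 0, 1.07 and 1.02 in mice 5114, 5155, 5116, 5193 and 5153, and an Ang II mean of 0.417. ENSMUST00000221224 had a Control mean of 0.500102 and an Ang II mean of 0.295 FPKM. Just outside, ENSMUST00000186410 had means of 0.511 in Control and 0.491 in Ang II and was listed for AngII+VAL with a mean of 0.50026. ENSMUST00000229160 had 0.531 and 0.449 in these groups and was listed for AngII+VAL with 0.500272 FPKM. The Control means of these 4 transcripts lay within 0.5 to 0.531 FPKM, and the levels of the inside pair in AngII+VAL are not known.

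For reference, Ang II was compared with Control by limma on log2(FPKM + 1) across all 31852 transcripts. At a Benjamini-Hochberg adjusted p under 0.05, 0 of the 760 members were called, where 0.0188% of all transcripts were called lower in Ang II and 0.00628% higher. Past the thresholds named by the study, a fold of 2 and an unadjusted p under 0.05, 2 members were lower in Ang II, where 0.741% of all transcripts were. Members with a Control mean under 1 FPKM, all but 50, could not reach this fold on log2(FPKM + 1), even at 0 in Ang II. At an unadjusted p under 0.05 alone 114 members (15.0%) were lower and 0 higher, where 4.78% of all transcripts were lower. The rule used this contrast, so nothing is read from these counts. With a pseudocount of 0.1 in place of 1, the count past the study's thresholds was 111 members lower, where 2.83% of all transcripts were lower at that setting.

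Control was one of several groups with many transcripts of its own. At a mean of 0.5 or more in 1 group alone were 760 Ensembl transcripts in Control, 369 in Ang II, 531 in AngII+ETH, 779 in AngII+BAI, 448 in AngII+GAS and 470 in AngII+VAL. Control thus ranked second, next to the baicalin group. Control also had the most transcripts at the threshold in total, 21996, against 20827 in Ang II, the fewest, and 21315 to 21624 in the drug groups. The median level of the transcripts of 1 group alone lay close to the threshold that chose them, from 0.580 FPKM in Control to 0.620 in AngII+BAI. The share with a mean of 1 or more was 18.6% in AngII+BAI and between 6.58% and 8.72% in the other groups. The share carried by 1 mouse with over 50% of the group sum was 30.1% in Control, 29.6% in AngII+ETH, 34.6% in AngII+GAS, 39.8% in Ang II, 41.7% in AngII+VAL and 56.0% in AngII+BAI. The share that kept a mean of 0.5 whichever mouse was left out was 24.5% in Control and between 14.9% and 27.7% in the other groups. These shares are descriptions of sets that were chosen by their own group means and were not tested against each other.

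**Figure D5:**
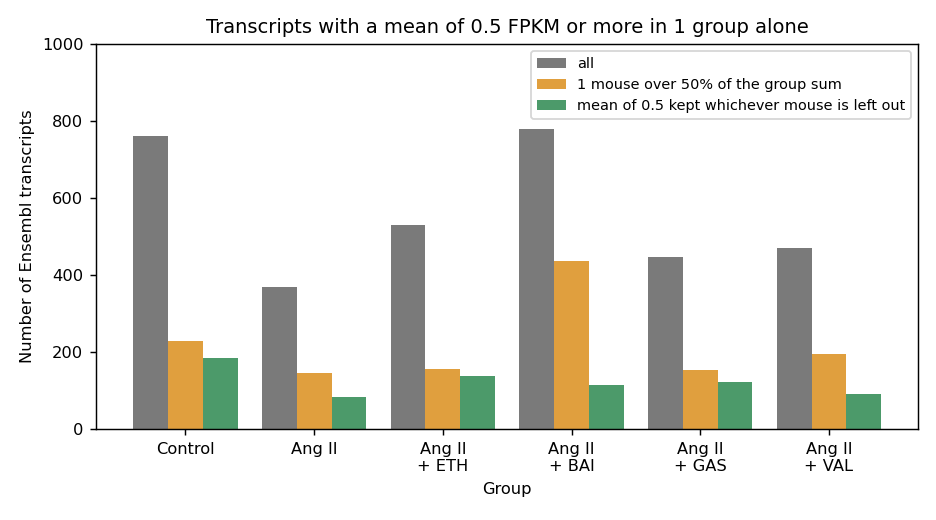
Number of Ensembl transcripts (vertical axis, linear from 0) with a mean of 0.5 FPKM or more in 1 of the 6 groups alone. Grey bars give all of them, orange bars those in which 1 mouse held over 50% of the group sum, and green bars those that keep the mean whichever mouse is left out. Control, with 760, stands next to AngII+BAI, with 779, and the green bars run from 83 to 186.

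The members were one end of a longer series. In all, 3111 Ensembl transcripts had a mean of 0.5 or more in Control and under 0.5 in Ang II. Of these 760 (24.4%) reached 0.5 in no drug group, 695 in 1, 617 in 2, 524 in 3 and 515 in all 4. The remaining 2351 were thus at the threshold in at least 1 group given a drug with Ang II. The median Control mean rose along this series, from 0.580 FPKM in the members to 0.611, 0.642, 0.698 and 0.787. The share with a Control mean of 1 or more was 6.58% in the members, and 8.06%, 11.2%, 20.8% and 27.6% in the other steps. The share that kept the Control mean whichever mouse was left out was 24.5% in the members, and 37.7%, 46.0%, 55.3% and 75.3% in the other steps. The steps were sorted by group means against the same threshold that the rule used, so nothing is read from these rises. In the opposite direction, 1942 Ensembl transcripts were at 0.5 or more in Ang II and under it in Control, of which 369 (19.0%) reached it in no drug group. Both shares depend on how close the levels lie to 0.5.

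The number in a transcript identifier was not used by the rule, which used level. Ensembl numbers its transcripts, and models added later in general carry higher numbers. Identifiers numbered 100000 or above made up 86.2% of the members, against 62.9% of all Ensembl transcripts and 51.5% of the 16598 at the threshold in all 6 groups. These 16598 also lay higher, with a median Control mean of 2.62 FPKM against 0.580 in the members. Whether the share depends on level was not tested. The share was 86.0%, 85.3%, 83.2% and 79.2% in transcripts that reached 0.5 in 1, 2, 3 and 4 drug groups, and among the transcripts of 1 other group alone it was lowest in AngII+VAL, at 76.8%, and above that of the members in AngII+ETH. High shares were thus also found outside the members.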

How the data were processed

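Cardiac RNA-seq tables of 30 mice were used, and groups were taken from the labels. The deposited values were read as FPKM, one per transcript and mouse. Aligner, quantifier, annotation and unit are not given in the sources used here. According to the submitters' processing notes, build mm10 and limma were used, while the methods of the paper cite DESeq. The tables appeared to be filtered on group means of 0.5, as read from their values. Depth is unknown, so no interval that needs it is given, and precision rests on the spread between 5 mice. No 2 files were near-identical (highest correlation 0.840).

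Members, means, SDs and shares were computed in Python 3.11.15 (pandas 2.3.3), and figures drawn with matplotlib 3.10.9. Ang II and Control were compared with limma 3.58.1 in R 4.3.3 (mean-variance trend, two-sided, log2(FPKM + 1), Benjamini-Hochberg over all 31852 transcripts), tested on simulated data. No filter was added, since 0 members reached 1 FPKM in at least 5 of the 10 libraries.

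The members, lists and tests were chosen with earlier results of these data known. Named were the 6 members with the highest mean, up to 3 with the smallest p in each direction (only 1 was higher), the 4 above 0 in all 10 mice with the lowest coefficient of variation, the 3 with the highest single value, and 2 on either side of the threshold, which made 16 members. A further 6 were added after their values were seen. No p is given for single members, because the rule used the contrast. Gene lists set for cell types and pathways could not be used, as no identifier was matched to a gene.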

Additional observations from a re-analysis of the deposited data

Results flagged for a closer look

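Within the groups of 5 mice, 54 checks were made for a mouse far from the rest (gap to the nearest mouse over the range), 44 on the 22 named members and 10 on measures over all members, and 16 were past the critical value. Chance flags about 1 in 20 checks where values are normally distributed. In Control, 10.4% of the 23848 Ensembl transcripts with any spread had a high mouse past the critical value. Several members were also named for a high value, so the number itself says little. None of the 10 measures over all members was past it.

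In mouse 5155 of the Control group, ENSMUST00000079716 was at 43.9 FPKM, ENSMUST00000230714 at 32.5, ENSMUST00000084366 at 24.5 and ENSMUST00000111349 at 16.6. In Control mouse 5153, ENSMUST00000151221 was at 19.7 FPKM and ENSMUST00000029727 at 2.36. In Control mouse 5114, ENSMUST00000069256 was at 20.4 FPKM. In Control mouse 5116, ENSMUST00000090260 was high at 10.5 FPKM and ENSMUST00000181936 low at 0.245, with 0.914 to 1.17 in the other mice. In Control mouse 5193, ENSMUST00000109832 was at 7.59 FPKM and ENSMUST00000221224 at 0.892, with 0.327 to 0.453 in the others. In the Ang II group, ENSMUST00000049680 was at 0.971 FPKM and ENSMUST00000151221 at 0.206 in mouse 5128, each with 0 in the other mice. In Ang II mouse 5156, ENSMUST00000113397 was at 1.95 FPKM and ENSMUST00000181071 at 0.00684. In Ang II mouse 5130, ENSMUST00000109832 was at 0.515 FPKM, with 0.250 to 0.322 in the others. The cause of these values was not tested.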

How the results depend on the processing

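No paired analysis was possible because the labels pair no mice across groups. The number of members was 760. It was 722 with values above 0 in at least 3 Control mice, 395 with a Control median of 0.5 or more, and 50 with a Control mean of 1 or more, as these steps are stricter by construction. With each mouse left out in turn, between 515 and 728 of the 760 stayed on the same side of 0.5. Other settings were added after the data were seen. Of the 760, 695 remained after scaling to a common upper quartile and 358 without Control mice 5155 and 5153 together. In 37, every Control mouse lay above every Ang II mouse. Transcripts outside the 760 that would newly meet the rule were not counted in any setting. The median level over the members was 0.580 FPKM in Control and 0.276 in Ang II by means, and 0.507 and 0.207 by medians. In limma, 8 of all 31852 transcripts were called at adjusted p, between 2 (without Control mouse 5155) and 14 with a mouse left out (14 without Control mouse 5114 or Ang II mouse 5143 or 5161), and 448 passed the study's thresholds. Among the members 0 were called. At an unadjusted p under 0.05, 114 (15.0%) were lower, where 4.78% of all transcripts were. The number called was 1 with a pseudocount of 0.1 (10 of all transcripts) and 1 without Control mouse 5116 (13 of all transcripts). It was 0 without any other mouse. At the study's thresholds 2 members were lower, where 0.741% of all transcripts were. The rule used this contrast, so these counts are a description only. With the filter at 1 FPKM in at least 5 of 10 libraries no member could be tested. As the depth is unknown, the counting error of levels this close to the threshold could not be given.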

Other observations

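The same rule applied to the merged transcript models, which carry no Ensembl identifier, gave 240 models that were listed for Control and Ang II and for none of the drug groups.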
